A study of Mus musculus with 10 samples.

Results

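The epidermal differentiation complex (EDC) is a cluster of genes for proteins of the outer epidermis. Its members were taken here as the rows of the deposited table named Sprr, Lce or S100a followed by a digit, together with Flg, Flg2, Hrnr, Rptn, Tchh, Tchhl1, Lor, Ivl, Crnn and Crct1. This gave 63 of the 49671 genes in the table. They comprised 17 small proline-rich genes (SPRR), 21 late cornified envelope genes (LCE), 15 S100A genes, 7 genes of the S100-fused type (Flg, Flg2, Hrnr, Rptn, Tchh, Tchhl1 and Crnn) and 3 other envelope genes (Lor, Ivl and Crct1).

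As background, keratinocytes that leave the basal layer build a cornified envelope beneath the cell membrane, in which transglutaminases cross-link involucrin (Ivl), loricrin (Lor), SPRR and LCE proteins. S100-fused type proteins such as filaggrin (Flg) bundle keratin filaments or join the envelope. S100A proteins are small calcium-binding proteins, of which S100a8 and S100a9 form calprotectin, known for its rise in inflamed, wounded or hyperproliferative epidermis and for its abundance in neutrophils. Several SPRR genes are likewise known from stressed and wounded epidermis, and LCE1 genes from normal cornification.

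RNA was sequenced from mouse skin epidermal cells sorted for SmoM2-YFP, an activated Smoothened that drives basal cell carcinoma, to study Survivin (Birc5) in these tumours. All 5 groups carried Rosa-SmoM2, and each had 2 libraries. The group called Krt14 here was Krt14-CREER/Rosa-SmoM2 at 6 and at 8 weeks, LOF was the same driver with Survivin LOF at 6 weeks, Inv was Inv-CREER/Rosa-SmoM2 at 8 weeks, and GOF was Inv-CREER/Rosa-SmoM2/Krt14rtTA/Survivin-GOF at 8 weeks. The titles write TAM after the weeks, so that the weeks were not read as ages. Krt14 is a promoter of basal keratinocytes and Inv is that of a member gene, Ivl, active in differentiating keratinocytes, so the drivers mark different cells of origin. Krt14rtTA is not listed for the Inv controls and cannot be told apart from Survivin GOF. The labels call both Inv libraries pools, and nothing in them says that the libraries of a group came from separate animals, so p-values measure only the spread between libraries.

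Values are normalized counts scaled by the authors to about the same total in each library. Between 7693153 and 8870758 reads were recovered behind a library, and 3 reads were worth 6.76 to 7.80 normalized counts, taken as the detection floor (counting error only). Birc5 followed the labels, with 961 and 1103 in Krt14 at 6 weeks, 382 and 429 in LOF, 237 and 265 in Inv and 7277 and 16384 in GOF. The 8 keratinocyte markers summed to between 166920 and 310231 in every library. Xist, expressed from the inactive X chromosome, stood at 30024 and 59594 in LOF and at 7589 and 56185 in GOF, against 51 to 194 in the other groups. Y-linked Ddx3y stood between 956 and 3328 in every library. The fibroblast markers (6 genes) summed to 1300 to 2673 in both Krt14 groups and to 14803 to 37656 in LOF, Inv and GOF, most of it Dcn. In LOF, limma called 5 of 6 sebaceous, 5 of 6 melanocyte and 2 of 7 tested macrophage and Langerhans markers higher. The part of these cells, and of whatever separates the libraries by Xist, in the results was not tested. The sebaceous markers (6 genes) summed to 149563 and 150840 in Inv and to 15278 to 60264 elsewhere. In bulk libraries such as these, fewer cells of a type and less RNA per cell cannot be told apart.

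Of the 63 members, 62 lie on chromosome 3 of GRCm38 at chr3:90511034-93564643, a span of 3053.61 kb, and the pseudogene S100a11-ps lies on chromosome 12. From S100a1 on, 12 S100A genes occupy the first 184.688 kb. After 1384.55 kb without a member come the 41 genes from Lor to Lce1m, with all SPRR and LCE genes and Ivl, in 938.79 kb. The 7 S100-fused genes follow in 327.194 kb, and S100a11 and S100a10 close the span.

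The 250 bases before the start are shown for some of the genes named below, because the SPRR, Ivl, Flg and Lor genes shown share 2 sequence features there that Lce1a1 lacks. They are RefSeq sequences of GRCm38.p6, written 5′ to 3′ on the strand of the gene. Capitals mark AP-1 motifs (TGANTCA, a palindrome bound by Fos and Jun family factors) and TATA motifs (TATAAA, here on the gene's strand). Not all genes with large changes below hold both: the window of S100a8, not shown, holds TATAAA without an AP-1 motif, and that of S100a9 holds neither.
Sprr1a, chr3:92485882-92486131, minus strand: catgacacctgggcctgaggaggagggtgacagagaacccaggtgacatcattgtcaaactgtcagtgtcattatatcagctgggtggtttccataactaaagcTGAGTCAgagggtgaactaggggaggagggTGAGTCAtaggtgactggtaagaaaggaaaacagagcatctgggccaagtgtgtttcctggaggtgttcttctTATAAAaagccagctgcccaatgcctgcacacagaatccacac
Sprr1b, chr3:92438780-92439029, minus strand: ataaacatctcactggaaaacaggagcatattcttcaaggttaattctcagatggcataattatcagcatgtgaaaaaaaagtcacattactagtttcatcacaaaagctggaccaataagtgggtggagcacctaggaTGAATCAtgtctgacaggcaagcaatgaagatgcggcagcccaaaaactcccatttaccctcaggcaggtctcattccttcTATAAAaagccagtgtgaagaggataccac
Sprr2h, chr3:92385435-92385684, plus strand: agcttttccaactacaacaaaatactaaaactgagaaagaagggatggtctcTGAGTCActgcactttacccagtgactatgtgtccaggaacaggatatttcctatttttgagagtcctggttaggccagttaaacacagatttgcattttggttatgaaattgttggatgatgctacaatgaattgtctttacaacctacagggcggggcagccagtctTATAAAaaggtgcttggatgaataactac
Ivl, chr3:92573736-92573985, minus strand: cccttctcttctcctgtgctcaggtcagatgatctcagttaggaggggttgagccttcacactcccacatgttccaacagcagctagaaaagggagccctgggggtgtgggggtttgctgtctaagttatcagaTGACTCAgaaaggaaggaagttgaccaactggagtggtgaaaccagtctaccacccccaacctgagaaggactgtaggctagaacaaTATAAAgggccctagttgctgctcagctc
Flg, chr3:93273296-93273545, plus strand: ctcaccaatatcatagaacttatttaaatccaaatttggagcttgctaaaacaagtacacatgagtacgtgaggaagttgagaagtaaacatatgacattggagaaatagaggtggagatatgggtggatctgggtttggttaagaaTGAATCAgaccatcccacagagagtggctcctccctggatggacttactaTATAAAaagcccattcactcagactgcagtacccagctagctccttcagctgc
Lor, chr3:92083143-92083392, minus strand: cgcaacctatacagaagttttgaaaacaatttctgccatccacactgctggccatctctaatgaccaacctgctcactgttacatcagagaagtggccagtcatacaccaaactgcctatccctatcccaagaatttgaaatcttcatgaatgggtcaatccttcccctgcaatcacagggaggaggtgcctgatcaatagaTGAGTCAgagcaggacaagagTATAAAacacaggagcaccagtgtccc
Lce1a1, chr3:92648308-92648557, minus strand: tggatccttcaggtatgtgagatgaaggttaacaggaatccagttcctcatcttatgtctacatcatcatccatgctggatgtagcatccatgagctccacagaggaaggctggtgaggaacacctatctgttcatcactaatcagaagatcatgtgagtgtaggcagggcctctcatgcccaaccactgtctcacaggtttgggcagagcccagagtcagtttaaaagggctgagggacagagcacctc

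An AP-1 motif was found in 18 of the 58 RefSeq windows of members (31.0%), against 6.75% of 32851 windows of all genes, each window being the 250 bases before a start, read on both strands. The SPRR genes held it in 9 of 14 windows, the S100-fused genes in 5 of 7, Lor and Ivl in both windows, the S100A genes in 2 of 15 and the LCE genes in 0 of 20. The 54 members with a window are near copies of one another in part, so these are not independent sites. In 7 of the 10 SPRR2 genes with a window, the motif began 193 to 198 bases before the start, and TATAAA began 29 bases before it. TATAAA on either strand was present in 39.7% of member windows and in 12.4% of all windows. It did not overlap the AP-1 motif in the sequences shown. A GRHL motif (AACNGGTT) was present in 5.17% of member windows and 1.79% of all, and a KLF motif (GGGNGTGG) in 3.45% and 15.9%. A match describes letters only and is no evidence of binding.

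The members together made up 0.0503% to 0.159% of all normalized counts, and S100A genes supplied 87.5% to 95.7% of that sum. In all 10 libraries, 17 members lay at or above the floor. In none did 15 members reach it, and 3 of these (S100a11-ps, Lce3b and Lce3d) were at 0 throughout. Per kilobase of exon and averaged over the 10 libraries, S100a11 had the highest level, 7499 normalized counts, followed by S100a6 at 3501, S100a14 at 1654, S100a16 at 1552 and S100a10 at 1482. S100a9 (1014), S100a8 (783), Sprr1a (544) and Sprr1b (383) came next on this scale, but their averages hide large differences between groups. Ivl (60.5) and Lor (31.7) were far lower per kilobase. S100a11 shares 41% of its 50-base windows with other genes, mostly pseudogenes, and its level is uncertain to that extent.

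**Figure D1:**
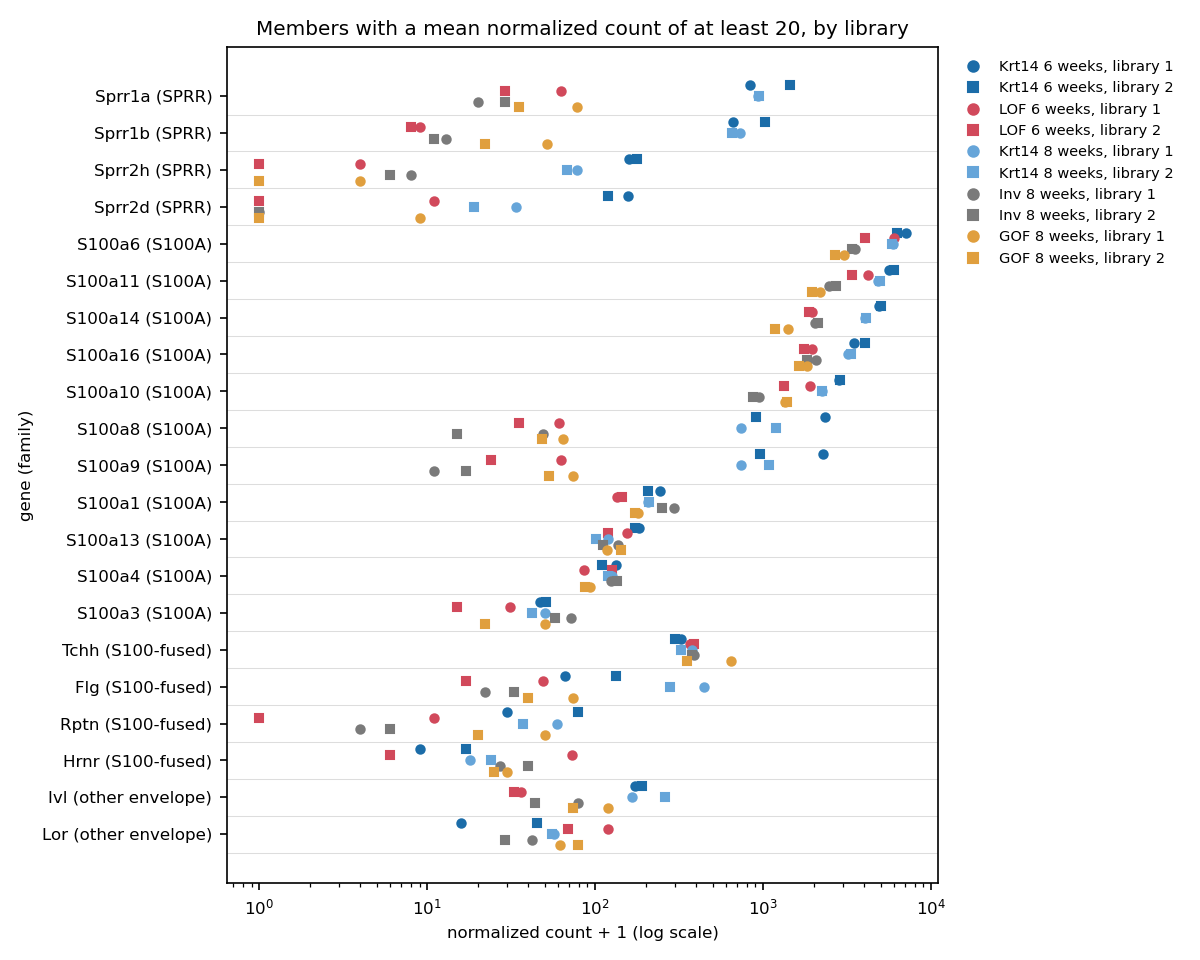
Normalized count plus 1 (log axis) of the 21 members with a mean of at least 20, 1 point for each library, circles for library 1 and squares for library 2, coloured by group. The SPRR genes, S100a8 and S100a9 lie far to the right in both Krt14 groups, while Tchh and S100a13 lie close together in all 5 groups.

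The summed levels set the Krt14 groups apart from the other 3. SPRR genes summed to 2051 and 3000 in Krt14 at 6 weeks and to 1869 and 1747 at 8 weeks. In LOF they summed to 105 and 47, in Inv to 49 and 50 and in GOF to 159 and 77. S100a8 and S100a9 together reached 4608 and 1860 in Krt14 at 6 weeks and 1475 and 2280 at 8 weeks, against 122 and 57 in LOF, 58 and 30 in Inv and 136 and 99 in GOF. No library of LOF, Inv or GOF reached a Krt14 library in either sum. The sum of the S100-fused genes, in which Tchh had the highest value except in library 1 of Krt14 at 8 weeks, where Flg had, did not follow this, with 433 and 529 in Krt14 at 6 weeks, 500 and 412 in LOF, 909 and 672 in Krt14 at 8 weeks, 441 and 460 in Inv and 803 and 436 in GOF.

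**Figure D2:**
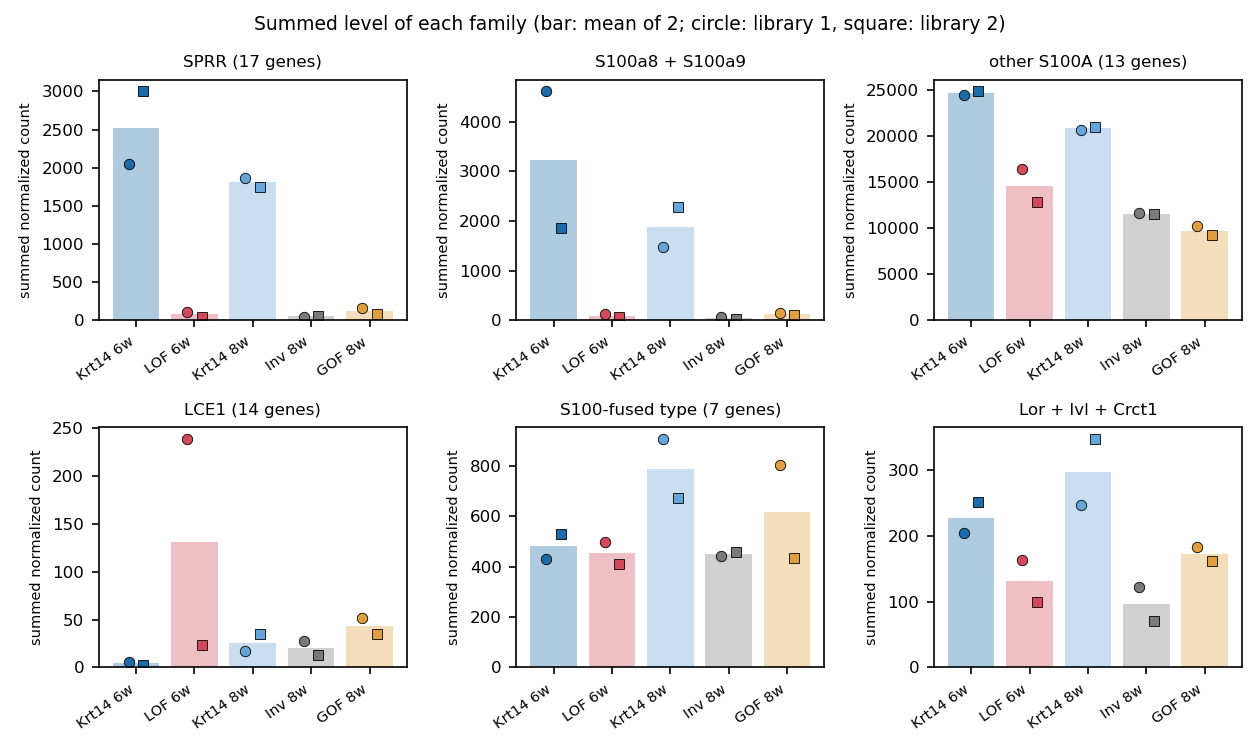
Summed normalized count of each family (vertical axes from 0) in the 5 groups, bars for the mean of 2 libraries, circles for library 1 and squares for library 2. SPRR genes and S100a8 with S100a9 are high in both Krt14 groups only, whereas LCE1 genes are high in a single LOF library (239) and reach at most 52 in the other 9.

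Loss of Survivin under the Krt14 driver was compared at 6 weeks. In LOF, 19 members fell and 1, Lor, rose. The 19 were 9 of the 12 tested SPRR genes, 7 of the 12 tested S100A genes, Ivl, Flg and Rptn. Among the S100A genes, S100a8 and S100a9 had the largest changes, and S100a6 did not pass. LCE genes did not pass the test in either direction.

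The test covered 35 members, and the 28 others, with no value above 30, were too low for it. It used limma on log2(normalized count + 1) in a single model of all 5 groups, with Benjamini-Hochberg adjustment over the 21995 genes tested and a threshold of 0.05, and adjusted p below are from it. Log2 changes are differences of group means on that scale. For low genes, above all with a library at 0, they can be smaller or larger than the fold would give. Folds are ratios of the mean normalized counts of the 2 groups, or bounds where so named. Over all genes tested, 30.9% were called in this comparison, 11.4% lower and 19.5% higher. Of the tested members, 20 of 35 were called. Their median log2 change was -1.70, against 0.16 over all genes, and -1.49 with the 5 members that were at 0 in a group set at their bound. Of the 12 tested SPRR genes, 9 passed the filter on low values through Krt14 libraries alone, and Sprr2d also needed them. These genes could hardly be other than lower elsewhere, so the counts are no support for a direction.

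SPRR proteins are cross-linking precursors of the cornified envelope. Sprr1b stood at 662 and 1026 in Krt14 at 6 weeks and at 8 and 7 in LOF, which lie just above the floor. Its log2 change was -6.60 (SE 0.40, adjusted p = 2.5e-06). Sprr1a stood at 829 and 1439 in Krt14 and at 62 and 28 in LOF, a log2 change of -4.68 (SE 0.45, adjusted p = 3.6e-05). Both LOF libraries were below both Krt14 libraries for each gene.

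Sprr2h, the most abundant SPRR2 gene, whose promoter is shown above, stood at 158 and 176 in Krt14 and at 3 and 0 in LOF, under the floor; it is one of the 9 that passed the filter through Krt14 libraries alone. Sprr2d stood at 156 and 119 in Krt14 and at 10 and 0 in LOF (limma adjusted p = 0.0061). It was at 0 and 0 in Inv and 8 and 0 in GOF. It thus also needed Krt14 libraries to pass the filter, so that its p is no support for a direction. Sprr2g was 27 and 62 in Krt14 and 0 in both LOF libraries, at least 6.27-fold lower against the floor of 3 reads per library. Sprr2e, Sprr2f and Sprr2i lay between 13 and 39 in Krt14 and were all at 0 in LOF, at least 2.82-fold to 4.23-fold lower. Sprr2a3 was also called lower, but it shares 61% of its 50-base windows with other genes, and Sprr2a1 and Sprr2a2 share 96%. These 3 genes cannot be separated. Of the other SPRR members, Sprr2a1, Sprr2a2 and Sprr2b were tested and not called, and 5 (Sprr2c-ps, Sprr2j-ps, Sprr2k, Sprr3 and Sprr4) had no value above 10.

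S100a8 stood at 2336 and 907 in Krt14 at 6 weeks and at 60 and 34 in LOF, and S100a9 at 2272 and 953 against 62 and 23. The lower Krt14 library was far above the higher LOF library in each. Their log2 changes were -4.98 (SE 0.56, limma adjusted p = 0.00010) and -5.24 (SE 0.49, limma adjusted p = 3.3e-05). Neutrophil markers moved in the same direction, from 375 and 246 in Krt14 to 26 and 17 in LOF for the sum of 11 genes. Of these 11, 5 were tested and Cxcr2 and Mmp9 fell, Mmp9 from 309 and 192 to 15 and 3. Cxcr2 reached the filter value of 10 in Krt14 libraries alone, so that its call is no support for a direction. Retnlg was 0 in all 10 libraries, Ly6g and Csf3r were 0 in 9 and at 3 in the other, and Elane had no value above 3. Most of the 11-gene sum in Krt14 was Mmp9. Camp (0 and 6 in Krt14, 5 and 5 in LOF) was not called, and Ngp was 0 in all 4 of these libraries and 17 and 8 in Krt14 at 8 weeks. Cxcr2 stood at 51 and 42 in Krt14 at 6 weeks and at 5 and 11 at 8 weeks, while S100a8 at 8 weeks was 734 and 1191. The part of other cells in the S100a8 and S100a9 levels was not tested.

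Among the other S100A genes, S100a14, an epithelial S100 protein, stood at 4868 and 5054 in Krt14 and at 1953 and 1876 in LOF (-1.37 log2 units, SE 0.10, limma adjusted p = 1.0e-05). S100a16 stood at 3497 and 4055 against 1950 and 1757 (-1.02 log2 units, SE 0.11, limma adjusted p = 9.9e-05). For both genes the LOF libraries lay close together and below Krt14. S100a10, the partner of annexin A2, stood at 2814 and 2882 against 1888 and 1337 (-0.84 log2 units, SE 0.14). S100a11 stood at 5577 and 6007 against 4198 and 3391 (-0.62 log2 units, SE 0.12), and S100a1 at 242 and 205 against 134 and 143 (-0.68 log2 units, SE 0.18). The LOF and Krt14 libraries did not overlap for these 3 genes. The 5 tested S100A genes that did not pass were S100a3, S100a4, S100a6, S100a7a and S100a13. S100a4 stood at 132 and 109 in Krt14 and at 85 and 125 in LOF, and it overlaps the gene Gm42674, with which it shares 47% of its 50-base windows. S100a6, the most abundant S100A gene by normalized count, stood at 7072 and 6302 in Krt14 and 6041 and 4038 in LOF (log2 change -0.43).

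The major envelope precursors went apart. Ivl stood at 172 and 189 in Krt14 and at 35 and 32 in LOF, a log2 change of -2.40 (SE 0.36, limma adjusted p = 0.00061). Lor, the bulk protein of the mature envelope, stood at 15 and 44 in Krt14 and at 119 and 68 in LOF, a log2 change of 1.76 (SE 0.49, limma adjusted p = 0.019). Without library 1 of Krt14 or library 1 of LOF, the change of Lor was 1.02 and 1.36, with limma adjusted p of 0.138 and 0.142. Flg stood at 65 and 132 in Krt14 and at 48 and 16 in LOF, a log2 change of -1.70 (SE 0.54, limma adjusted p = 0.036). Rptn, repetin, stood at 29 and 78 against 10 and 0 (-3.88 log2 units, SE 0.99, limma adjusted p = 0.013). Leaving out library 2 of Krt14 or library 2 of LOF raised the limma adjusted p of Flg to 0.247 and 0.283 and that of Rptn to 0.108 and 0.0944. Tchh, trichohyalin of the hair root sheath, did not pass the test, at 323 and 297 in Krt14 and 367 and 386 in LOF (0.28 log2 units, SE 0.24). Hrnr, hornerin, stood at 8 and 16 against 72 and 5, with the LOF libraries on either side of Krt14.

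LCE1 genes were near 0 in Krt14 at 6 weeks, where the 14 genes summed to 6 and 3, and 11 of them were at 0 in both libraries. In LOF they summed to 239 and 23. Library 1 of LOF was above library 2 in 13 of the 14 genes, and it was the highest of all 10 libraries in 12. Only 4 LCE genes could be tested, and limma called 0, with 2 at an unadjusted p below 0.05. Lce1a1 stood at 62 and 5 in LOF and had the highest LCE value. The LCE3 genes, known from injured epidermis, were at 0 in LOF, Inv and GOF, and the 6 genes summed to 3 and 9 in Krt14 at 6 weeks and 6 and 6 at 8 weeks. Kprp, an envelope gene within the LCE cluster that is no member, stood at 117 and 7 in LOF and at 10 to 24 in the other groups. The same LOF library had the highest Lor and Hrnr of all libraries.

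When the Xist level was added to the model on the log2 scale, 0 members passed in LOF (limma, 4 at an unadjusted p below 0.05), and over all genes 4.28% were called. Xist was high only in LOF and GOF, so its log2 level can hardly be told apart from these groups. The loss of calls therefore decides nothing about Xist. With the linear Xist level, 23.1% of all genes were called and 13 members passed, 10 lower and 3 higher, among them Sprr1a, Sprr1b, S100a8, S100a9 and Ivl. Leaving out 1 library at a time gave 16 to 20 calls, and 13 members passed each time. The 7 that did not were Flg, Lor, Rptn, S100a1, Sprr2a3, Sprr2d and Sprr2f. Rescaling by the median of ratios moved the median of all genes from 0.16 to 0.02 and the share of higher calls over all genes from 63.1% to 49.0% (45.8% with limma-voom), and it called 20 members lower and 1 higher.

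The driver was compared at 8 weeks, between Krt14 and Inv, other libraries than those set against each other for LOF. The filter and the spread came from all 10 libraries in both comparisons. In Krt14, 17 members were higher and 0 were lower than in Inv. They were Sprr1a, Sprr1b, Sprr2a3, Sprr2d, Sprr2g and Sprr2h among SPRR genes, 7 S100A genes, Flg, Rptn, Ivl and Crct1. Sprr2a3, Sprr2g and Sprr2h passed the filter through Krt14 libraries alone, and Sprr2d needed them, so the counts are no support for a direction. Over all genes tested, 19.6% were called, 8.18% higher and 11.4% lower. The 35 tested members had a median log2 change of 1.29, or 0.92 with the 7 that were at 0 in a group set at their bound, against -0.10 over all genes. Of the calls over all genes, 41.8% were higher, and 51.5% after rescaling by the median of ratios, which left 17 members higher.

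Sprr1b stood at 727 and 651 in Krt14 and at 12 and 10 in Inv, a log2 change of 5.85 (SE 0.40, limma adjusted p = 6.1e-06). Sprr1a stood at 926 and 941 against 19 and 28 (5.28 log2 units, SE 0.45, limma adjusted p = 2.0e-05). Sprr2h stood at 77 and 67 against 7 and 5, and Sprr2d at 33 and 18 against 0 in both Inv libraries, at least 3.75-fold higher. Both genes needed Krt14 libraries to pass the filter. Sprr2e, Sprr2f and Sprr2i, called in LOF, had at most 5 in Krt14 at 8 weeks and were not called here.

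S100a9 stood at 741 and 1089 in Krt14 and at 10 and 16 in Inv, a log2 change of 6.04 (SE 0.49, limma adjusted p = 1.6e-05). S100a8 stood at 734 and 1191 against 48 and 14 (5.11 log2 units, SE 0.56, limma adjusted p = 0.00011). The neutrophil list summed to 314 and 371 in Krt14 and 211 and 170 in Inv, and limma called 0 of its 5 tested genes. The abundant S100A genes differed by less, without overlap. S100a10 was 945 and 874 in Inv and 2254 and 2237 in Krt14 (1.30 log2 units, SE 0.14). S100a14 stood at 4014 and 4073 against 2035 and 2118 (0.96 log2 units, SE 0.10), S100a11 at 4847 and 4976 against 2455 and 2730 (0.92 log2 units, SE 0.12). S100a16 and S100a6 were higher by 0.74 (SE 0.11) and 0.77 (SE 0.16) on the log2 scale. S100a1, S100a3, S100a4, S100a7a and S100a13 did not pass. S100a1 stood at 206 and 207 in Krt14 and 292 and 249 in Inv.

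Flg stood at 445 and 278 in Krt14 and at 21 and 32 in Inv, a log2 change of 3.71 (SE 0.54, limma adjusted p = 0.00083). Ivl stood at 165 and 258 against 78 and 43 (1.81 log2 units, SE 0.36, limma adjusted p = 0.0048). Rptn stood at 58 and 36 against 3 and 5 (limma adjusted p = 0.040). Lor did not pass, at 56 and 54 against 41 and 28 (0.68 log2 units, SE 0.49), and Tchh stood at 375 and 322 against 385 and 378. Of the 17 calls, 10, those of Sprr1a, Sprr1b, Sprr2a3, S100a8 to S100a11, S100a14, S100a16 and Flg, were made whichever library was left out. The calls of Sprr2d, Sprr2h and Rptn were lost without any 1 of the 4 libraries, with limma adjusted p between 0.0627 and 0.200. Those of Crct1, Ivl, S100a6 and Sprr2g were lost without at least 1 library, Ivl without library 2 of either group (limma adjusted p up to 0.0670).

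Of the 19 members lower in LOF, 15 (78.9%) were also among the 17 higher in Krt14 than in Inv, and these 15 were 88.2% of the latter. Over all genes tested, 1152 genes were in both sets, 45.9% of the 2511 lower in LOF and 64.0% of the 1800 higher in Krt14. Both comparisons set a Krt14 group against another, and low members passed the filter through Krt14 libraries in both. Members lower in LOF and not called here were S100a1, Sprr2e, Sprr2f and Sprr2i, and members called here only were Crct1 and S100a6. A difference between the 2 comparisons was not tested.

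**Figure D3:**
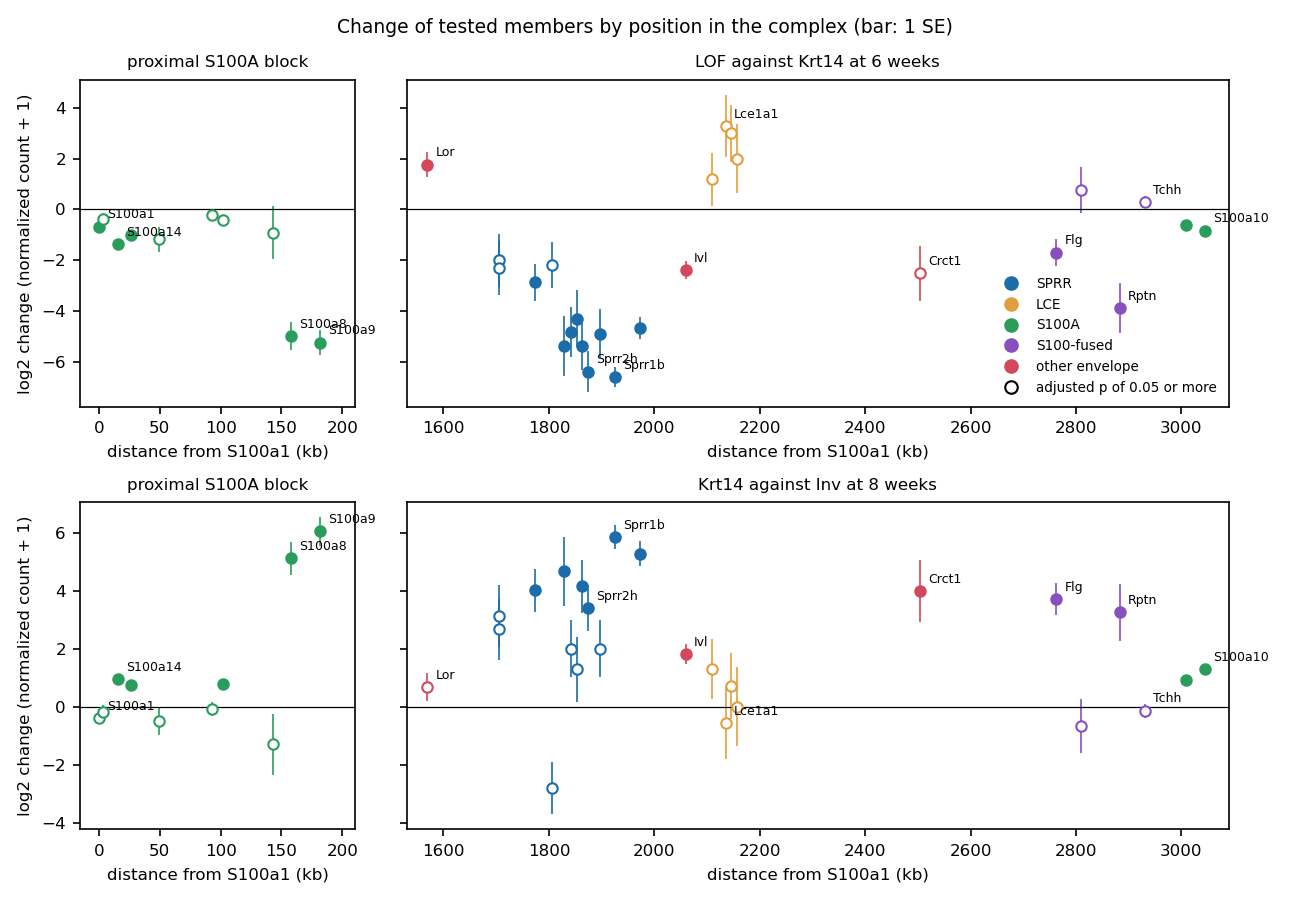
Log2 change with 1 SE (vertical) of tested members by distance of the gene's lower coordinate from that of S100a1 in kb (horizontal, 2 panels because no member lies between them), LOF against Krt14 above and Krt14 against Inv below, coloured by family, open where the adjusted p was 0.05 or more. S100a9 (-5.24 and 6.04) lies far from 0 at the end of the proximal block. S100a1 at its start lies closer to 0 and below it in both (-0.68, called, and -0.38, not called).

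Changes were unequal along the cluster. In the LOF comparison, the 4 tested LCE genes, next to Ivl, had positive log2 changes that did not pass. They lie between SPRR genes and Ivl on one side and Crct1 (log2 change -2.52, not called) on the other. These LCE changes rest on library 1 of LOF, as library 2 had at most 5 in each of them, under the floor. Within the S100-fused block, Flg and Rptn fell, and Hrnr between them and Tchh after them did not pass.

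Gain of Survivin was compared with Inv at 8 weeks. In GOF, Sprr1b, S100a9, Sprr2a3 and S100a10 were higher, and S100a14 and S100a1 were lower, 6 of the 35 tested members. Sprr2a3 was 8 and 8 in GOF and 0 in both Inv libraries, at least 1.18-fold higher. Over all genes tested, 15.3% were called, 6.87% higher and 8.4% lower, so that 17.1% of tested members called lay near the background. Members had a median log2 change of 0.59, and of 0.06 with the 6 members at 0 in a group set at their bound, against -0.014 over all genes.

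Sprr1b stood at 51 and 21 in GOF and at 12 and 10 in Inv (3.27-fold, limma adjusted p = 0.029). S100a9 stood at 73 and 52 against 10 and 16 (2.20 log2 units, SE 0.49, limma adjusted p = 0.013). S100a8, its partner, stood at 63 and 47 against 48 and 14 and was not called (log2 change 1.03). Both S100a9 values in GOF lay above Inv, whereas the S100a8 libraries of the 2 groups overlapped. S100a10 stood at 1342 and 1391 against 945 and 874 (0.59 log2 units, SE 0.14, limma adjusted p = 0.019). S100a14 went the other way, at 1405 and 1168 against 2035 and 2118 (-0.70 log2 units, SE 0.10, limma adjusted p = 0.0017), and so did S100a1 at 178 and 172 against 292 and 249 (-0.62 log2 units, SE 0.18, limma adjusted p = 0.044).

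Flg stood at 73 and 39 in GOF against 21 and 32 in Inv, Ivl at 118 and 73 against 78 and 43, Lor at 61 and 78 against 41 and 28 and Rptn at 49 and 19 against 3 and 5, and limma called none of the 4. Tchh stood at 643 and 351 in GOF, on either side of Inv. Only the call of S100a14 was made whichever library was left out. Calls numbered 1 without either Inv library, 5 without library 2 of GOF and 8 without library 1 of GOF, and S100a14 was lower in each. The share of all genes called moved as well, to 5.12% and 4.15% without an Inv library, 9.90% without library 2 of GOF and 28.2% without library 1 of GOF. All 6 calls were lost in a fit of only the 2 groups (1.17% of all genes called) and with the log2 Xist level (0.182%), with 8 and 6 members at an unadjusted p below 0.05 in limma. The log2 Xist level can hardly be told apart from GOF, as was the case for LOF.

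GOF was also set against Krt14 at 8 weeks, which differs from it in the driver, Krt14rtTA and Survivin together. In GOF, 13 members were lower and 0 were higher, 37.1% of tested members. Sprr2g and Sprr2h among them passed the filter through Krt14 libraries alone, as did other SPRR2 genes tested. The counts and the median are therefore no support for a direction. Over all genes tested, 27.7% were called, 12.5% lower and 15.2% higher. The median log2 change was -1.0 over tested members, -0.91 with the 3 that were at 0 in a group set at their bound, and 0.09 over all genes. This comparison shares its Krt14 libraries with the driver comparison and its GOF libraries with the one above.

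In GOF Sprr1b was 51 and 21, compared with 727 and 651 in Krt14 (-4.35 log2 units, SE 0.40, limma adjusted p = 3.9e-05), and Sprr1a at 77 and 34 against 926 and 941 (-4.16 log2 units, SE 0.45, limma adjusted p = 9.2e-05). Sprr2h stood at 3 and 0 against 77 and 67. S100a8 and S100a9 fell by 4.08 (SE 0.56) and 3.84 (SE 0.49) log2 units. The neutrophil list summed to 338 and 184 in GOF and 314 and 371 in Krt14, and 2 of its 5 tested genes (Cxcr2 and Mmp8) were lower in GOF. Cxcr2 stood at 5 and 11 and Mmp8 at 7 and 16 in Krt14, and both were at 0 in GOF. They reached the filter value of 10 in Krt14 libraries alone, so these calls are no support for a direction. The part of neutrophils was not tested. S100a14 stood at 1405 and 1168 against 4014 and 4073 (-1.66 log2 units, SE 0.10), and S100a11 at 2193 and 1948 against 4847 and 4976 (-1.25 log2 units, SE 0.12). S100a6, S100a16 and S100a10 were also lower, with log2 changes of -1.04, -0.91 and -0.72.

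Filaggrin mRNA showed the same order, with Flg at 73 and 39 in GOF and 445 and 278 in Krt14 (-2.70 log2 units, SE 0.54, limma adjusted p = 0.0042), and Ivl at 118 and 73 against 165 and 258 (-1.14 log2 units, SE 0.36, limma adjusted p = 0.035). Lor, Tchh, Hrnr and Rptn did not pass. The call of Ivl was lost without either Krt14 library or library 2 of GOF (limma adjusted p up to 0.245), that of Flg without library 1 of Krt14 (limma adjusted p = 0.0529), and that of Sprr2g without 3 of the 4 libraries. With the log2 Xist level in the model, 0 members passed (limma, 4 at an unadjusted p below 0.05) and 0.918% of all genes were called. Here too that level can hardly be told apart from the group. With the linear level 13 members passed, 12 lower and 1 higher, and 19.996% of all genes were called. These were not the same 13, as Ivl and Sprr2g no longer passed.

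Under the Krt14 driver, 8 weeks were compared with 6 weeks. Sprr2b, 36 and 19 at 6 weeks and 0 in both libraries at 8 weeks, was at least 3.77-fold lower and was the only member called (limma adjusted p = 0.018). It reached the filter value of 10 in the 6-week Krt14 libraries alone, so that its call is no support for a direction. Over all genes tested, 4.88% were called, 4.02% higher and 0.855% lower. The share of higher calls over all genes, 82.5%, was 53.7% after rescaling by the median of ratios and 36.3% with limma-voom. The median log2 change was -0.24 over tested members, -0.23 with 3 of them at their bound, and 0.14 over all genes. Members of SPRR2 summed to 552 and 526 at 6 weeks and to 206 and 149 at 8 weeks, whereas SPRR1 genes summed to 1491 and 2465 and to 1653 and 1592. Sprr2d stood at 156 and 119 at 6 weeks and 33 and 18 at 8 weeks and was not called (-2.43 log2 units, SE 1.19). Flg stood at 65 and 132 and then 445 and 278, with no overlap, and was not called (1.91 log2 units, SE 0.54). The call of Sprr2b was lost without any 1 of the 4 libraries (limma adjusted p 0.0749 to 0.116). At an unadjusted p below 0.05, 9 members passed.

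**Figure D4:**
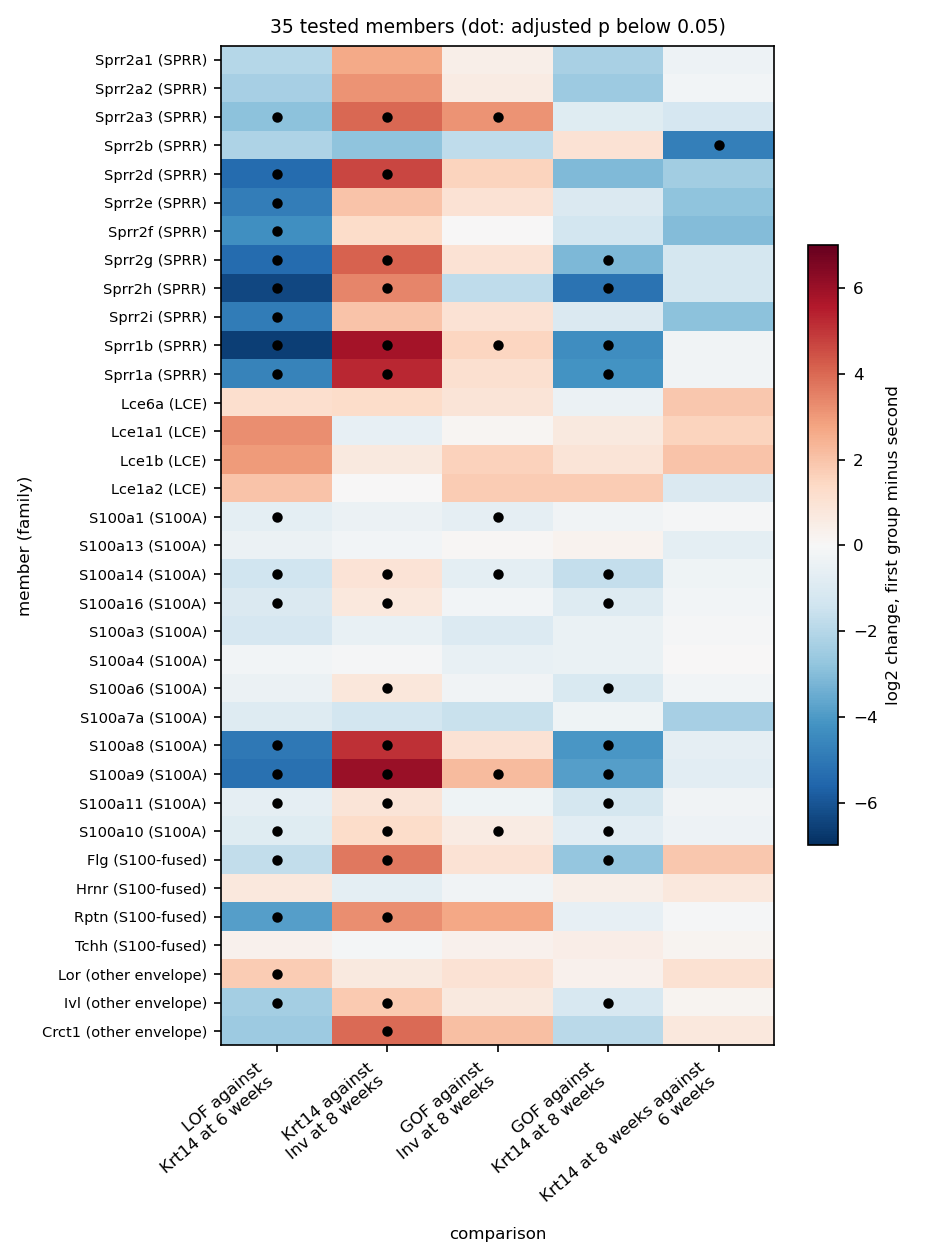
Log2 change, first group minus second (colour scale), of the 35 tested members (rows, by family and position) in the 5 comparisons (columns), with a dot where the adjusted p was below 0.05. The tested SPRR rows are blue for LOF against Krt14 (Sprr1b at -6.60), and all but Sprr2b (-2.79, not called) are red for Krt14 against Inv (Sprr1b at 5.85), and dots are few for GOF against Inv (6) and for 8 against 6 weeks (1). Of the 12 SPRR rows, 9 passed the filter through Krt14 libraries alone, so their shared colour is no support for a direction.

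The remaining members with a mean of at least 20 were mostly not called. S100a13 stood at 182 and 171 in Krt14 at 6 weeks, 154 and 118 in LOF, 118 and 100 in Krt14 at 8 weeks, 135 and 111 in Inv and 116 and 141 in GOF. S100a4 stood between 85 and 134 in all 10 libraries, and S100a13 and S100a4 passed in none of the 5 comparisons. S100a3, known from the hair cuticle, stood at 46 and 50 in Krt14 at 6 weeks, 30 and 14 in LOF, 49 and 41 in Krt14 at 8 weeks, 71 and 57 in Inv and 49 and 21 in GOF, and it also passed in none. Crct1, a cysteine-rich gene beside the LCE genes, was low throughout and called higher in Krt14 than in Inv only, at 17 and 19, 10 and 0, 26 and 36, 3 and 0, and 5 and 11 in the same order of groups. Hrnr stood at 17 and 23 in Krt14 at 8 weeks, 26 and 39 in Inv and 29 and 24 in GOF. The members left were lower still. S100a7a had no value above 12, S100a2 and S100a5 none above 3, and Flg2, Crnn and Tchhl1 none above 13.

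Known regulators of the cluster were read from a list of 27 transcription factors, all tested. In LOF, 15 were lower and 4 higher, against 11.4% lower and 19.5% higher over all genes tested. Ehf, an ETS factor of differentiating epithelia, stood at 2000 and 1695 in Krt14 and at 325 and 465 in LOF (-2.24 log2 units, SE 0.18). Fosl1, an AP-1 subunit, stood at 848 and 1292 against 53 and 82 (-3.97 log2 units, SE 0.40). Gata3 and Satb1, the latter a chromatin organizer of this locus, rose from 2816 and 2774 to 6886 and 7145 and from 187 and 73 to 1029 and 1155. In Krt14 against Inv, 14 were higher and 3 lower, against 8.18% higher and 11.4% lower over all genes tested. Fos stood at 14589 and 14061 in Krt14 at 8 weeks against 3177 and 2651 in Inv (limma adjusted p = 4.5e-06), and Fosl1 at 447 and 444 against 39 and 25. Klf4, of the granular layer, and Ahr, the aryl hydrocarbon receptor, were higher by 1.42 (SE 0.14) and 1.34 (SE 0.13).

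In GOF against Inv, 5 of the 27 regulators were higher and 1 lower, against 6.87% and 8.4% of all genes tested. With a filter of 50, 23.2% of all genes were called either way, so the regulator count lay near the background. Klf4 stood at 5516 and 6638 in GOF and 2401 and 2247 in Inv (1.38 log2 units, SE 0.14), and Ahr, Nfe2l2 and Fos were higher by 1.09, 0.89 and 0.64. Fosl1 stood at 37 and 89 in GOF and was not called. In GOF against Krt14, 9 were lower and 4 higher, against 12.5% lower and 15.2% higher over all genes tested. At 8 against 6 weeks Fos and Jun were higher, as were 4.02% of all genes tested. Of the 19 members that fell in LOF, 16 had a RefSeq window and 12 of these held the AP-1 motif, against 2 of the 15 with a window among tested members that did not fall. SPRR copies make up 7 of the 12, so this is a description of the windows. Among these 7, Sprr2e, Sprr2f, Sprr2h and Sprr2i passed the filter through Krt14 libraries alone, and Sprr2d needed them. They could hardly be other than lower in LOF, so the 2 counts are no support for a link of motif and change. A part of AP-1 factors was not tested.

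Cornified envelope and granular genes outside the complex (18 genes) were mixed in LOF, with 8 lower and 7 higher. The counts of this list stand beside the shares of all genes called, 30.9% in LOF, 19.6% in Krt14 against Inv, 15.3% in GOF against Inv, 27.7% in GOF against Krt14 and 4.88% at 8 against 6 weeks. Tgm1, the main cross-linking transglutaminase, stood at 213 and 303 in Krt14 and at 8 and 14 in LOF (-4.46 log2 units, SE 0.36), and Sbsn, suprabasin, at 1935 and 2177 against 769 and 634 (-1.55 log2 units, SE 0.13). Krt2, a keratin of upper epidermal layers, stood at 20 and 8 in Krt14 and at 2850 and 2598 in LOF (7.63 log2 units, SE 0.37), and Scel, sciellin, rose by 1.19 (SE 0.10). In Krt14 against Inv, 10 were higher and 2 lower. Spink5, Casp14 and Sbsn were higher by 3.15 (SE 0.26), 3.32 (SE 0.32) and 1.24 (SE 0.13), and Krt2, at 31 and 16 against 3966 and 3959, differed by -7.41 (SE 0.37) on the log2 scale. GOF differed from Inv in 2 higher and 3 lower, and from Krt14 in 2 higher and 9 lower. At 8 against 6 weeks 4 were higher and 0 lower.

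**Figure D5:**
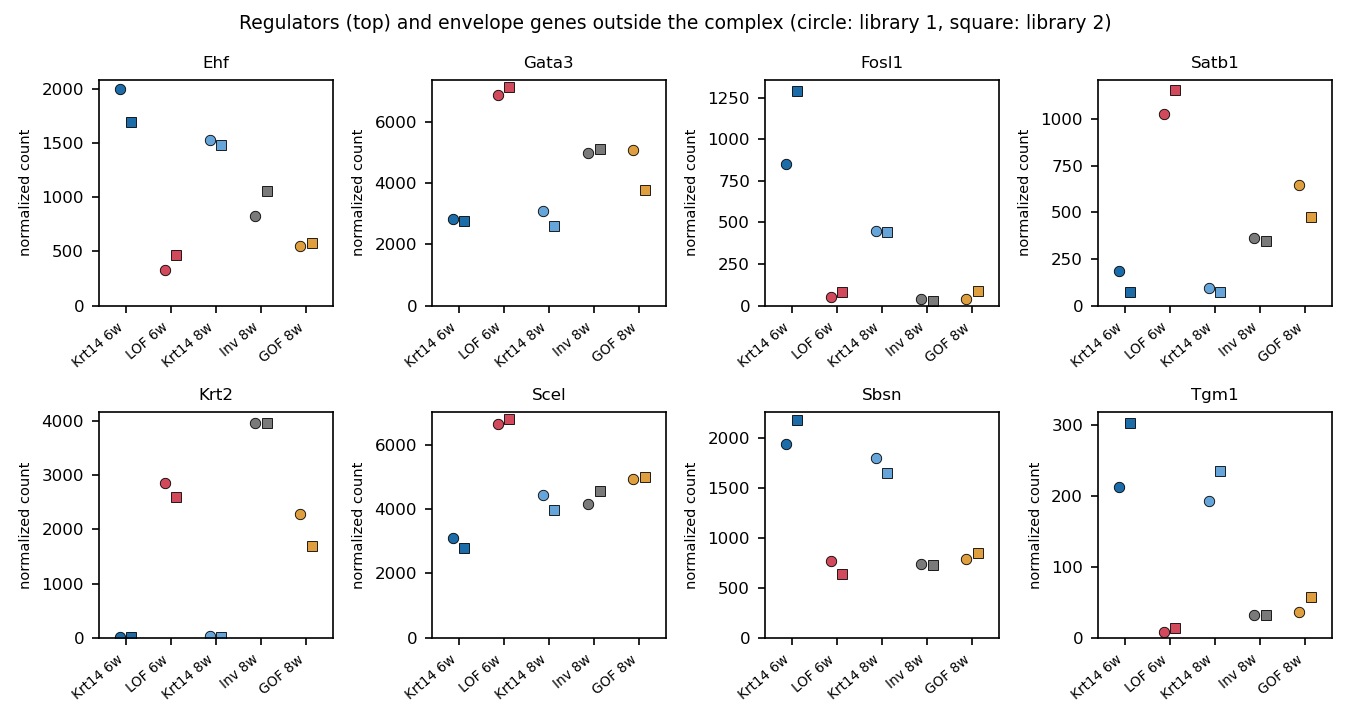
Normalized count (vertical, from 0) by group of the 4 regulators (top) and the 4 envelope genes outside the complex (bottom) with the smallest p in LOF against Krt14, circles for library 1 and squares for library 2. Ehf, Fosl1, Sbsn and Tgm1 are high in both Krt14 groups, whereas Krt2 is at most 31 in them and at least 1693 in the other 3 groups.

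Of 6 other genes within the complex (Kprp, Lelp1, Pglyrp3, Pglyrp4, Smcp and Prr9), 5 were tested. Pglyrp3, an antibacterial peptidoglycan recognition protein, stood at 134 and 127 in Krt14 at 6 weeks, 3 and 7 in LOF, 142 and 192 in Krt14 at 8 weeks, 3 and 10 in Inv and 3 and 11 in GOF. It was the only gene of this list lower in LOF (-4.54 log2 units, SE 0.66), and it and Pglyrp4 were higher in Krt14 than in Inv. Pglyrp4 stood at 19 and 29 in Krt14 at 8 weeks, 5 and 3 in Inv and 0 in both GOF libraries. It was called lower in GOF than in Inv, although every value of these 2 groups lies under the floor. Both genes were lower in GOF than in Krt14. Pglyrp4 needed Krt14 libraries to pass the filter, so its calls against Krt14 are no support for a direction. Prr9 fell from 101 and 106 at 6 weeks to 28 and 13 at 8 weeks.

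In a list of S100 genes outside the complex that also holds S100pbp, the gene of an S100P-binding protein and no S100 gene, S100b (0 and 0 against 5 and 7) and S100pbp were higher in LOF, S100b was higher at 8 than at 6 weeks, and the other 3 comparisons had no call in the 3 tested. S100b had no value above 16. Of 4 known S100A receptors, Cd36 and Ager were higher and Bsg lower in LOF. Cd36, also a fatty acid receptor of sebaceous cells, stood at 96 and 86 in Krt14 at 6 weeks, 360 and 406 in LOF, 697 and 692 in Krt14 at 8 weeks, 4426 and 5090 in Inv and 611 and 822 in GOF, and the sebaceous sums above were likewise highest in Inv. Their part was not tested. Tlr4, the receptor named for calprotectin, stood between 7 and 51, and was called only as higher in Krt14 than in Inv.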

How the data were processed

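As deposited by the authors, the table holds 1 score per gene and library, a normalized count. Per the submitters' processing notes, STAR, HTSeq and GRCm38 (mm10) were used; their versions, the annotation and any use of strand were not given in the sources used here. Between 99.3% and 99.9% of values below 20000 are multiples of a library-specific step after rounding up. The unit is therefore a score, and edgeR and DESeq2 were not run. Genes reaching 10 in 2 or more libraries (21995) were fitted on log2(value + 1) with limma 3.58.1 in R 4.3.3 (5-group model, eBayes with trend, 5 residual degrees of freedom, two-sided), tested first on simulated data. With 2 libraries a group, an exact permutation test cannot go below p = 0.333.

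Members and lists were chosen with earlier results of these data known. Values in every library are given for members with a mean of at least 20, others by range or where singled out after their values were seen; full statistics go to the largest changes per family and list values to the 4 smallest p. Coordinates and shared 50-base windows come from GENCODE (49326 IDs matched), promoters from RefSeq.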

Additional observations from a re-analysis of the deposited data

How the results depend on the processing

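Calls of members were recounted with another pseudocount, filter, scaling, model or set of libraries. In LOF against Krt14 they numbered 13 with the linear Xist level and 0 with the log2 Xist level as a covariate (both chosen after seeing the data), and 16 to 20 without 1 library. Under the log2 Xist level, log2 changes turned to 0.10 for S100a11, 3.56 for Rptn, 5.29 for Sprr2d and 2.98 for Flg in LOF, and to 0.76 for Sprr2g, 0.39 for Sprr2h and 1.41 for Flg in GOF against Krt14, where 0 members were called. These changes did not pass (limma adjusted p from 0.334 to 0.961). They are poorly determined, because Xist was high only in LOF and GOF and its log2 level can hardly be told apart from these groups. In GOF against Inv calls numbered 3 with no filter, 3 at 2-fold, 3 with limma-voom on recovered reads (chosen after seeing the data), 0 in a fit of only the 2 groups (8 at an unadjusted p below 0.05), 0 with the log2 Xist level (6 at an unadjusted p below 0.05) and 1 to 8 without 1 library. In Krt14 against Inv they numbered 10 to 13 without 1 library. At 8 against 6 weeks they numbered 4 with a pseudocount of 5, 0 with a filter of 50 (4 at an unadjusted p below 0.05), 2 with median-of-ratios scaling, 0 with only 2 groups (12 at an unadjusted p below 0.05), 7 with limma-voom, 2 and 3 with the log2 and linear Xist levels, and 0 without any 1 library (3 to 9 at an unadjusted p below 0.05). The share of all genes called moved too: with the log2 Xist level it was 4.28% in LOF against Krt14, 0.182% in GOF against Inv and 0.918% in GOF against Krt14, and in a fit of only 2 groups 1.17% in GOF against Inv and 0.0364% at 8 against 6 weeks. The cause was not tested.

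With the replicate block the calls numbered 23, 5, 17, 1 and 14 in LOF against Krt14, GOF against Inv, Krt14 against Inv, 8 against 6 weeks and GOF against Krt14. Deviations of same-numbered libraries correlated between -0.0542 and 0.0407, which shows no strong effect shared by number. With 2 libraries a group, this cannot exclude that the numbers pair samples. Where a group was left with 1 library, it was assumed to vary like the others. edgeR, DESeq2 and TMM scaling were planned and not run, the deposited unit being a scaled score; limma-voom was the only fit on recovered reads. Depth limits the LCE genes most, of which 17 of 21 were too low to test.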

Other observations

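Some genes between the members were read as values only, having been singled out after their values were seen. 2310046K23Rik, a protein-coding gene between Sprr4 and Ivl, stood at 438 and 406 in Krt14 at 6 weeks, 127 and 61 in LOF, 329 and 289 in Krt14 at 8 weeks, 53 and 48 in Inv and 142 and 120 in GOF. All 4 Krt14 libraries were above the other 6. The processed pseudogenes Gm5850 and Gm5851, both within the SPRR2 cluster, held equal values in 9 of the 10 libraries and differed by 3 in the other, between 102 and 201. In the interval of the complex lie 59 genes that are no members, of which 15 are protein coding and 15 were tested.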
